A study of Homo sapiens with 11 samples.

Results

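The replication-dependent histone genes supply the linker histone H1 and the core histones H2A, H2B, H3 and H4 that package newly copied DNA. Their RNA was followed here in RWPE1 cells, an immortalized line of human prostate epithelial cells, as oxygen was lowered to 1%. The rows of the count table were taken whose gene symbol is that of a replication-dependent H1, H2A, H2B, H3 or H4 gene and that held at least 20 counts over the 11 libraries. This left 44 of 67 matching genes, out of 60676 genes in the table. Of the 23 matching genes under that minimum, 5 were at 0 in every library: H2AC1, H2AC7, H2AC15, H2BC1 and H3C4. For H2AC7 and H3C4 this may not be a level, since 85.3% and 96.6% of their exonic bases lie under another annotated gene on the same strand.

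The study compared RWPE1 cells grown in normoxia with cells moved to 1% oxygen for 6, 12 or 24 h, with no other treatment or genetic change named for any group apart from the buffer given below. Normoxia, 6 h and 12 h had 3 libraries each and 24 h had 2. By the sample records the medium of the hypoxic cells also held 10 mM HEPES buffer, which is not named for the normoxic cells, so oxygen and buffer cannot be told apart. RNA over 200 bases was isolated from the same cell line throughout. Nothing says that the replicates came from separate cultures, so p-values measure the spread between these libraries, which may be technical. The labelled cell type was checked by its markers: 6 prostate basal genes summed to between 8318 and 21810 CPM (counts scaled by library size) in each library, while 4 endothelial genes summed to at most 0.471 CPM and 5 leukocyte genes to at most 3.64 CPM. Listed for the same check, 7 fibroblast genes summed to between 28.0 and 60.6 CPM, and 8 simple or luminal epithelial genes to between 228 and 1798 CPM. Between 27496009 and 49488345 reads per library were counted.

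As background, most of these genes lie in clusters at 6p22 and 1q21, with small groups elsewhere, and they are transcribed mainly in S phase under the coactivator NPAT. Their messages are unusual among messenger RNAs in that they end in a conserved stem-loop in place of a poly(A) tail. The stem-loop is bound by SLBP, the cut behind it is made with the U7 particle that carries LSM10 and LSM11, and the messages are destroyed when replication stops. Several of these genes are also known to make a minority of polyadenylated messages. The sources used here do not say whether the RNA was selected by its poly(A) tail or cleared of ribosomal RNA, so the share of histone message with a tail is unknown. Among 19 RNAs that lack a tail, listed for this check, 8 were at 0 in every library, RN7SK, RMRP and RPPH1 among them, while RN7SL1 lay between 32.7 and 143 CPM.

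The stem-loop was looked for in GRCh38 as 16 bases of stem, loop and stem within 120 bases after the stop codon, and it was present in 44 of the 44 genes, starting 22 to 57 bases after the stop. There were 7 forms of it. The form in H3C14 was shared by 24 genes of types H1, H2A, H2B and H3 and that in H2BC11 by 7 genes, while all 10 H4 genes carried one of the pair shown for H4C16 (6 genes) and H4C14 (4 genes). H3C6, H2AC11 and H2AC20 each had a form of their own. They are shown because the stem-loop is the feature by which these messages are processed. Capitals mark the 16 bases, with 5 bases on each side, read on the gene's strand.
H3C14, chr1:149840692-149840707, minus strand: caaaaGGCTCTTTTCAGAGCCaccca
H2BC11, chr6:27132321-27132336, minus strand: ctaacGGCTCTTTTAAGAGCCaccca
H4C16, chr12:14770724-14770739, minus strand: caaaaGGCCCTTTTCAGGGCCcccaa
H4C14, chr1:149833032-149833047, plus strand: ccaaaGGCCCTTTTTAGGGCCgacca
H3C6, chr6:26225596-26225611, plus strand: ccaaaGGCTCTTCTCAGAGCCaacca
H2AC11, chr6:27133515-27133530, plus strand: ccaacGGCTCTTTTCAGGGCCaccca
H2AC20, chr1:149887391-149887406, plus strand: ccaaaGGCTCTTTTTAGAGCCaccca

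In H1-2 and H2BC5 the letters AATAAA, the common signal for adding a poly(A) tail, began 13 bases past the stem-loop. They were the 2 of all 67 histone genes searched that held it within 100 bases. The 30 bases that follow the stem-loop are shown for them and for H4C9 and H2BC12, where the nearest AATAAA began 946 and 1553 bases on. Capitals mark AATAAA. These 4 genes are shown because they were among those with the clearest increases below.
H1-2: accactgatctcAATAAAagagctggataa
H2BC5: acgcatgttttcAATAAAtgagttgtaatc
H4C9: cctaagctttcaacaaaagagttgaaatga
H2BC12: acttaaattatcgatattagagctgtaaac

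The gene models differed as well. In GENCODE 44, 28 of the 44 genes end at the stem-loop, whereas 16 have an annotated transcript that runs more than 100 bases past it, among them H2BC5, H2BC11, H2BC21, H2AC6, H2AC25, H2BC26, H3C6, H4C14 and H4C15. Reads in the longer parts of these models count towards the gene. The genes are also alike in sequence. H3C14 and H3C15 have the same coding sequence and the same count in 11 of 11 libraries, and H4C14 and H4C15 differed by at most 9 counts. Each of these couples is therefore a single measurement printed under 2 names. H4C11 and H4C12 share a coding sequence too, but differed by up to 14 counts. Windows of 75 bases, the read length, that also occur in another gene made up over 50% of the exonic sequence in 9 of the 44 genes, including 61.3% of H2AC13 and 62.8% of H3C13, whose counts are uncertain to that extent.

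All genes were tested together in edgeR, and 38 of the 44 histone genes passed the filter on low counts. The other 6, H1-5, H2BC13, H2BC14, H3C2, H4C3 and H4C4, had at most 12 counts in any library and were not tested. Genes that pass such a filter through the group where they are high are bound to differ, so the counts below describe the 38 and are no evidence about the 44. A gene is called higher or lower at an adjusted p under 0.05 (Benjamini-Hochberg over the 19981 genes tested). Levels are CPM with TMM scaling, which sets levels relative to the bulk of the genes. Groups without overlap were common over the 19981 genes tested. At 6 h, 6706 genes lay wholly above normoxia and 7200 wholly below it. The numbers were 6952 and 7503 at 12 h and 6727 and 7866 at 24 h. All the values are RNA per library, and fewer cells in S phase and less histone RNA per such cell cannot be told apart.

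Some libraries stood apart. In 12 h replicate 1, 36 of the 38 histone genes had their lowest level of the 3 libraries at 12 h, against 39.9% of all genes tested. At 24 h, 32 of the 38 were lower in replicate 1 than in replicate 2, against 50.8% of all genes. Replicate 2 at 24 h also had the lowest TMM factor, 0.539, and 0.369% of its counts on mitochondrial genes, where the other hypoxic libraries had 1.74% to 6.78% and the normoxic libraries 10.2% to 10.4%. A list of 40 genes of DNA replication and S phase summed to 1474, 1680 and 1674 CPM in the 3 libraries at 12 h and to 1873 and 1880 CPM at 24 h. A list of 20 mitotic genes summed to 617, 1072 and 922 CPM at 12 h. The part of these differences in the histone values was not tested, and values without single libraries are given beside the results below.

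At 6 h of hypoxia, 4 histone genes were higher than in normoxia and 11 were lower, of the 38 tested. Among all genes tested 25.1% were called higher and 27.7% lower. The 4 were H2BC9, H1-2, H2BC12 and H4C9, all at 6p22. The 11 included 7 of the 8 genes at 1q21, H2BC26 at 1q42, and H2AC11, H3C6 and H2BC15 at 6p22. Of the 7, H3C13 passed the filter only through the normoxic libraries, so its calls were fixed by the filter and are no evidence. The median log2 fold change was -0.31, beside -0.002 over all genes. With the couples of identical copies summed, 4 were higher and 9 lower, of 35. In each of the 11 fits that left out 1 library, 9 of the 15 calls were made, those of H3C14, H3C15, H3C13, H2AC11, H3C6, H4C9, H2BC12, H1-2 and H2BC9.

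At 12 h, 14 were higher and 3 lower, where 24.2% of all genes were called higher and 27.1% lower. The 14 all lie at 6p22 and the 3 are H3C13, H3C14 and H3C15 at 1q21. Of the 14, H1-6 and H2AC14 passed the filter only through 12 h replicates 2 and 3, so that their calls were fixed by the filter and are no evidence. The same holds for H3C13, which passed it only through normoxia. The median was 0.62, beside -0.033 over all genes, and 0.33 without 12 h replicate 2 and 0.21 without 12 h replicate 3. Without 12 h replicate 1, 17 were higher and 1 lower. Without 12 h replicate 3, 8 were higher and 5 lower.

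At 24 h, 16 were higher and 4 lower, with 29.9% of all genes called higher and 31.3% lower. Of the 16, 14 lie at 6p22, and H2AC20 at 1q21 and H2AC25 at 1q42 are the others. The 4 lower were H3C13 and H2BC18 at 1q21, H2BC26 at 1q42 and H3C6 at 6p22, with the call of H3C13 fixed by the filter as above. The median was 1.02, beside -0.065 over all genes. Without 24 h replicate 2, 11 were higher and 6 lower and the median was 0.53. Without 24 h replicate 1 it was 20 higher and 1 lower, of 40 then tested.

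The split depended on the scaling, among all genes as well. With library size alone in place of TMM, the median of all genes moved to -0.32, -0.50 and -0.97 at 6, 12 and 24 h. The histone counts became 2 higher and 14 lower at 6 h, 9 and 8 at 12 h, and 8 and 10 at 24 h. Of the 19981 genes tested, 2713 were then called higher and 7130 lower at 6 h. These numbers were 2116 and 8444 at 12 h and 2222 and 11305 at 24 h. The medians of the histone genes then were -0.62, 0.16 and -0.11, so they lay above that of all genes at 12 and 24 h and below it at 6 h under both scalings. DESeq2's median-of-ratios factors gave 4 and 11, 13 and 3, and 16 and 2.

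By time course, the 38 genes fell into several groups. H1-2, H2BC12 and H4C9 were higher at all 3 times. H3C13 was called lower at all 3, but these calls were fixed by the filter as above and are no evidence. Higher at 12 and 24 h were 8 genes, H1-4, H2AC8, H2AC13, H2BC5, H2BC6, H2BC8, H2BC11 and H2BC17. H2AC20, H2AC25, H2AC6, H2BC4 and H3C10 were called higher at 24 h only, and H1-6, H2AC14 and H2BC7 at 12 h only. H3C14 and H3C15 were lower at 6 and 12 h, H2BC18, H2BC26 and H3C6 at 6 and 24 h, and H2AC11, H2BC21, H2BC15, H4C14 and H4C15 at 6 h only. H1-3, H3C8, H4C16, H4C5, H4C8, H4C11 and H4C12 were not called at any time. A gene called at a single time was not thereby shown to differ between times. Several of these calls, not described further, were lost when a library was left out: that of H2BC15 at 6 h in 5 of 11 fits, those of H2BC6 at 12 and 24 h in 6 and 4 (0.41 at 24 h without 24 h replicate 1), and those of H2AC13 in 2 and 3.

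**Figure D1:**
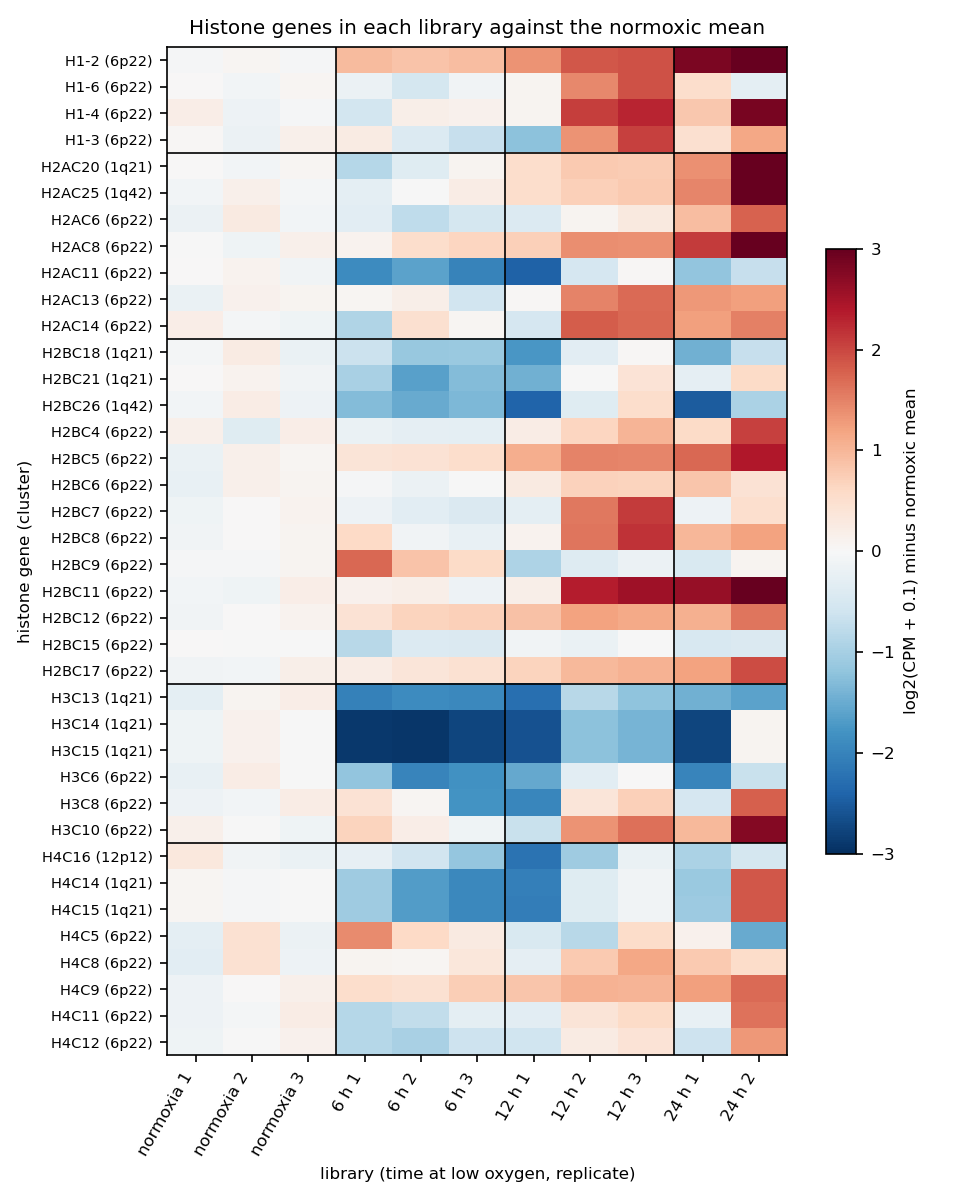
Level of the 38 tested histone genes in each of the 11 libraries, as log2(CPM + 0.1) minus the gene's mean in normoxia, with genes in rows by histone type and their cluster in brackets. Red is higher and blue lower than the normoxic mean, and colours stop at 3 in either direction. The 8 rows marked 1q21 are blue at 6 h in nearly every library, and 12 h replicate 1 is paler or bluer than replicates 2 and 3 in most rows.

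Linker histones. H1 binds the DNA between nucleosomes and helps to compact chromatin. There were 5 H1 genes, all at 6p22, and 4 were tested. Their summed level was 12.6, 13.1 and 12.7 CPM in normoxia, 23.8, 22.2 and 23.0 CPM at 6 h, 30.6, 46.5 and 49.98 CPM at 12 h and 84.6 and 178 CPM at 24 h. No 2 groups overlapped, and most of the sum came from H1-2.

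H1-2 (ENSG00000187837, chr6:26055740-26056470, minus strand, a single exon) was at 11.4, 12.1 and 11.4 CPM in normoxia, 22.5, 21.2 and 22.1 CPM at 6 h, 29.9, 42.5 and 44.1 CPM at 12 h and 82.7 and 173 CPM at 24 h. Each group lay above the one before it. Its log2 fold change was 0.92 ± 0.23 (SE) at 6 h, 1.74 ± 0.24 at 12 h and 3.46 ± 0.26 at 24 h, or 1.89, 3.34 and 11 times normoxia (edgeR, adjusted p = 0.00526, 9.3e-05 and 1.24e-06). At 24 h it also exceeded 12 h, by 1.72 ± 0.25 (edgeR, adjusted p = 0.00143), or by 1.07 without 24 h replicate 2. None of its 75-base windows occurs in another gene.

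The other H1 genes were sparse. H1-4 was at 0.300, 0.213 and 0.240 CPM in normoxia, 0.137 to 0.292 CPM at 6 h, 0.271, 1.36 and 1.60 CPM at 12 h and 0.513 and 2.40 CPM at 24 h. It rose by 2.11 ± 0.63 on the log2 scale at 12 h and 2.47 ± 0.71 at 24 h (edgeR, adjusted p = 0.0144 and 0.00899), with 12 h replicate 1 inside the range of normoxia. The 24 h call was lost without 24 h replicate 2 (0.99, edgeR adjusted p = 0.343), and the 12 h call without 12 h replicate 3 (adjusted p = 0.0679) or normoxia replicate 2 (adjusted p = 0.0527).

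H1-3 followed the same order at 12 h, with 0.271, 2.10 and 3.52 CPM against 0.786, 0.666 and 0.866 CPM in normoxia, and was not called (edgeR, adjusted p = 0.0687). H1-6, a testis-type H1, had 4, 3 and 4 counts in normoxia, 2, 1 and 4 at 6 h, 3, 14 and 27 at 12 h and 4 and 1 at 24 h. It was tested only because replicates 2 and 3 at 12 h passed the filter, and it left the fit without either of them, so its 12 h call is no evidence of a difference.

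**Figure D2:**
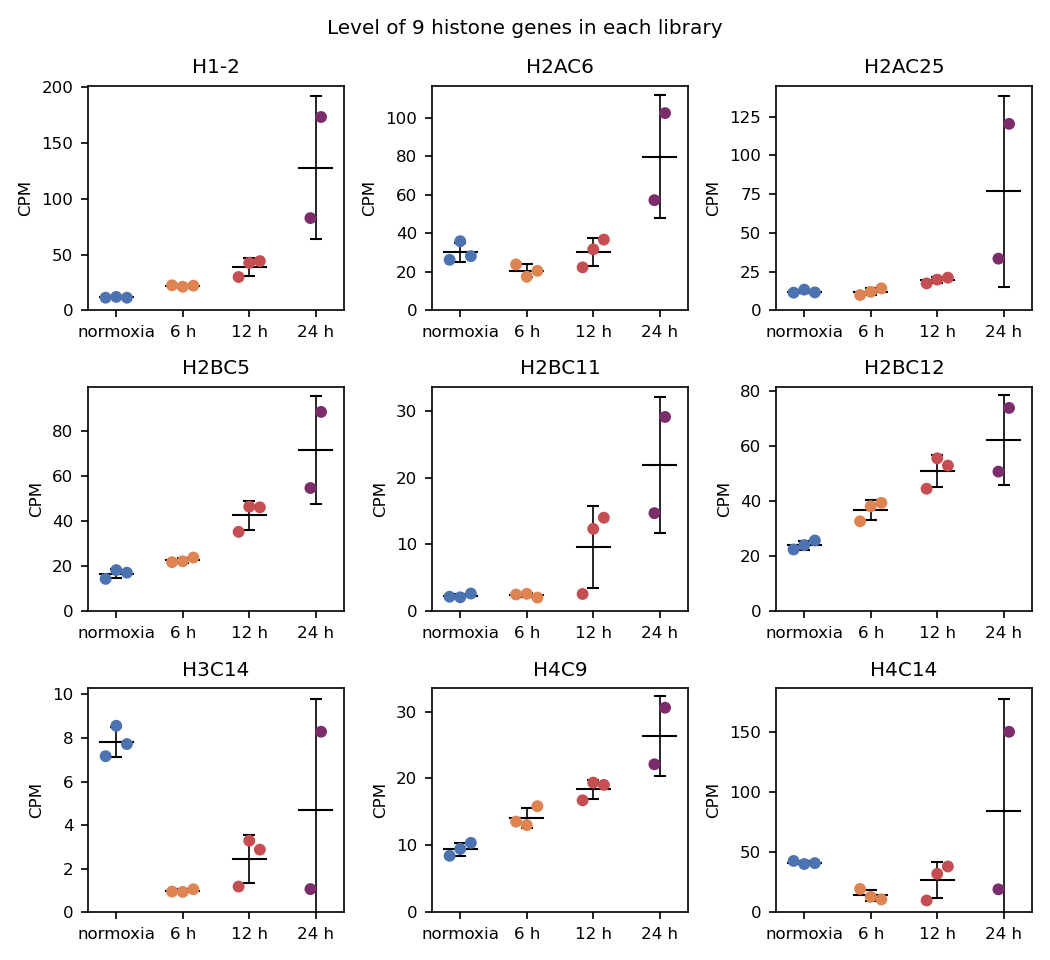
Level in CPM (y axis, from 0) of 9 histone genes by group (x axis), with a point per library, a line at the group mean and bars of 1 SD, cut at 0. H1-2 and H4C9 climb from group to group, H3C14 drops from about 8 CPM to about 1 CPM at 6 h, and the 2 libraries at 24 h lie far apart, most of all for H4C14.

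H2A genes. H2A pairs with H2B in the nucleosome, and many H2A genes share the stretch upstream of their start with an H2B gene read the opposite way. Of 7 H2A genes tested, 0 rose and 1 fell at 6 h, 3 rose at 12 h and 5 rose at 24 h. The 3 include H2AC14, whose call was fixed by the filter as above. Over all genes 25.1%, 24.2% and 29.9% were called higher at 6, 12 and 24 h, and 27.7% lower at 6 h. The summed level went from 44.9, 56.5 and 46.8 CPM in normoxia to 37.1, 34.1 and 39.9 CPM at 6 h, 46.0, 62.3 and 69.7 CPM at 12 h and 104 and 264 CPM at 24 h.

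H2AC25 (chr1:228434777-228457873, minus strand) was at 11.4, 13.4 and 11.6 CPM in normoxia, 9.91, 12.0 and 14.3 CPM at 6 h, 17.4, 19.9 and 21.1 CPM at 12 h and 33.4 and 120 CPM at 24 h. The 12 and 24 h libraries all lay above normoxia, and the difference was called at 24 h, 2.66 ± 0.37 (edgeR, adjusted p = 6.4e-05). Without 24 h replicate 2 it was 1.44 and still called.

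H2AC20 (chr1:149886918-149887411, plus strand) behaved alike, with 3.05, 2.85 and 3.10 CPM in normoxia, 1.61, 2.30 and 3.18 CPM at 6 h, 4.40, 5.25 and 5.12 CPM at 12 h and 7.92 and 32.8 CPM at 24 h. It rose by 2.75 ± 0.44 at 24 h (edgeR, adjusted p = 0.000165), or 1.38 without 24 h replicate 2, and is the only gene at 1q21 called higher at any time. H2AC18 and H2AC19, close copies of each other in the same cluster, were not analysed here, and 17.9% of the windows of H2AC20 occur in another gene.

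H2AC8 was low, at 0.532, 0.480 and 0.601 CPM in normoxia, 0.581, 0.811 and 0.891 CPM at 6 h, 0.947, 1.57 and 1.53 CPM at 12 h and 2.61 and 5.34 CPM at 24 h. It rose by 1.33 ± 0.33 at 12 h and 2.87 ± 0.35 at 24 h (edgeR, adjusted p = 0.00533 and 2.49e-05). H2AC6, at 26.2, 35.9 and 28.1 CPM in normoxia, was at 23.9, 17.5 and 20.5 CPM at 6 h and at 22.3, 31.7 and 36.7 CPM at 12 h, neither called. It stood at 57.2 and 102 CPM at 24 h and rose by 1.41 ± 0.26 (edgeR, adjusted p = 0.000516), or 0.91 without 24 h replicate 2.

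H2AC11 went the other way. It was at 3.19, 3.41 and 2.91 CPM in normoxia, 0.786, 0.973 and 0.720 CPM at 6 h, 0.507, 2.19 and 3.27 CPM at 12 h and 1.33 and 1.91 CPM at 24 h. The 6 h libraries lay far below normoxia, a difference of -1.95 ± 0.46 (edgeR, adjusted p = 0.00365), while 12 and 24 h were not called (-0.65 and -0.98). H2AC14 had 5, 3 and 3 counts in normoxia and 1, 19 and 23 at 12 h. It likewise passed the filter only through replicates 2 and 3 at 12 h, so its 12 h call is no evidence, and the call was lost in 3 of the 9 fits without 1 library that kept the gene (edgeR, adjusted p 0.0691 to 0.103).

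H2B genes. With 15 genes counted and 13 tested this was the most numerous type, and it went both ways. At 6 h 2 rose and 4 fell, at 12 h 7 rose and 0 fell, and at 24 h 7 rose and 2 fell. Beside these, 25.1%, 24.2% and 29.9% of all genes were called higher at those times, and 27.7%, 27.1% and 31.3% lower. The summed level was 93.3, 104 and 97.7 CPM in normoxia, 96.8, 90.7 and 95.2 CPM at 6 h, 109, 177 and 198 CPM at 12 h and 167 and 270 CPM at 24 h.

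H2BC12 (chr6:27146361-27146855, minus strand, a single exon) was at 22.4, 24.0 and 25.7 CPM in normoxia, 32.7, 38.1 and 39.3 CPM at 6 h, 44.5, 55.5 and 52.9 CPM at 12 h and 50.7 and 73.7 CPM at 24 h. Every hypoxic library lay above every normoxic one. It rose by 0.61 ± 0.16, 1.08 ± 0.16 and 1.37 ± 0.18 at 6, 12 and 24 h (edgeR, adjusted p = 0.00655, 0.000182 and 3.45e-05). In H2BC12, 39.0% of the windows occur in another gene, most often an annotated gene without a symbol.

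H2BC5 was at 14.4, 18.3 and 17.2 CPM in normoxia, 21.9, 22.3 and 23.9 CPM at 6 h, 35.3, 46.5 and 46.2 CPM at 12 h and 54.8 and 88.6 CPM at 24 h, again without overlap between groups. The 6 h difference of 0.45 ± 0.19 missed the threshold (edgeR, adjusted p = 0.0581), and the gene rose by 1.36 ± 0.19 at 12 h and 2.10 ± 0.20 at 24 h (edgeR, adjusted p = 0.000104 and 5.03e-06).

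H2BC11 (chr6:27125897-27132795, minus strand) stayed at 2.20, 2.11 and 2.67 CPM in normoxia and 2.53, 2.63 and 2.07 CPM at 6 h. At 12 h it was at 2.61 CPM in replicate 1 but at 12.3 and 14 CPM in replicates 2 and 3, and at 24 h at 14.7 and 29.1 CPM. It rose by 2.06 ± 0.47 at 12 h and 3.23 ± 0.51 at 24 h (edgeR, adjusted p = 0.00311 and 0.000166). Replicates 2 and 3 carried the 12 h difference.

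H2BC7 and H2BC8 had the same order at 12 h. H2BC8 was at 3.05, 3.36 and 3.54 CPM in normoxia and 3.55, 10.2 and 15.1 CPM at 12 h (1.54 ± 0.40, edgeR adjusted p = 0.00647). H2BC7 was at 0.347, 0.400 and 0.433 CPM in normoxia and 0.304, 1.36 and 2.01 CPM at 12 h (1.67 ± 0.49, edgeR adjusted p = 0.0136), a call lost without 12 h replicate 3 (1.10, adjusted p = 0.0952) or normoxia replicate 1 (adjusted p = 0.0525). H2BC9 was the gene with the highest called value at 6 h, at 6.49, 3.54 and 2.88 CPM against 1.85, 1.84 and 2.02 CPM in normoxia (1.17 ± 0.31, edgeR adjusted p = 0.00707, and 0.75 without 6 h replicate 1). It was back at 0.947, 1.42 and 1.67 CPM at 12 h.

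The H2B genes outside 6p22 were lower. H2BC21 (chr1:149884459-149886682, minus strand) was at 29.9, 31.7 and 27.5 CPM in normoxia, 14.97, 9.47 and 12.0 CPM at 6 h, 10.8, 29.3 and 39.6 CPM at 12 h and 24.6 and 43.8 CPM at 24 h. It fell at 6 h by 1.29 on the log2 scale (SE 0.37, edgeR adjusted p = 0.0105, and 0.0513 without 6 h replicate 2) and overlapped normoxia at 12 and 24 h. H2BC26 was at 4.09, 5.09 and 3.92 CPM in normoxia, 1.71, 1.46 and 1.63 CPM at 6 h, 0.744, 3.35 and 6.28 CPM at 12 h and 0.685 and 2.18 CPM at 24 h. Its 6 h call (-1.45 ± 0.54, edgeR adjusted p = 0.0390) was lost without any of the 6 libraries compared (adjusted p 0.0636 to 0.108). Its 24 h call (-1.64 ± 0.67, edgeR adjusted p = 0.0475) was lost in 8 of 11 such fits, and the value was -1.06 without 24 h replicate 1 and -2.69 without replicate 2. H2BC18, at 7.69 to 10.7 CPM in normoxia, was at 4.02 to 5.67 CPM at 6 h and 3.21 and 5.45 CPM at 24 h. Its calls (-0.97 ± 0.36 and -1.06 ± 0.42, edgeR adjusted p = 0.0372 and 0.0446) were lost in 5 and 7 of the 11 fits that left out a library.

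H3 genes. H3 carries the tails on which many chromatin marks are set. Of 6 tested H3 genes, 4 fell at 6 h, 3 fell at 12 h and 2 fell at 24 h, and 1 rose, H3C10 at 24 h. H3C13, whose calls were fixed by the filter, is counted among the falls at each time. H3C14 and H3C15, a single measurement under 2 names, are both counted among the falls at 6 and 12 h. Over all genes 27.7%, 27.1% and 31.3% were called lower at 6, 12 and 24 h, and 29.9% higher at 24 h. The summed level was 29.2, 35.98 and 32.6 CPM in normoxia, 13.2, 9.28 and 7.70 CPM at 6 h, 8.05, 23.8 and 27.5 CPM at 12 h and 10.2 and 43.7 CPM at 24 h. It lay below normoxia in every library at 6 h, and at 12 h only with both H3C14 and H3C15 counted. With the identical copies counted once it was 22.1, 27.4 and 24.9 CPM in normoxia and 6.87, 20.5 and 24.6 CPM at 12 h. There 12 h replicate 3 lay inside the range of normoxia. The 6 h mean was 0.308 of normoxia, or 0.366 with the identical copies counted once.

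H3C14 and H3C15 (chr1:149840687-149841208 and chr1:149852608-149853125) were each at 7.16, 8.56 and 7.72 CPM in normoxia and at 0.957, 0.941 and 1.06 CPM at 6 h. At 12 h they were at 1.18, 3.29 and 2.88 CPM, and at 24 h at 1.07 and 8.28 CPM. The 6 h level was 0.127 times that of normoxia (-2.97 ± 0.55, edgeR adjusted p = 0.000724). They remained lower at 12 h (-1.66 ± 0.51, edgeR adjusted p = 0.0165, and 0.0664 without 12 h replicate 1), and the libraries at 24 h straddled normoxia (-0.76 ± 0.58, not called).

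H3C13 was at 0.693, 0.933 and 1.01 CPM in normoxia, 0.137, 0.162 and 0.152 CPM at 6 h, 0.102, 0.445 and 0.320 CPM at 12 h and 0.257 and 0.218 CPM at 24 h, below normoxia in every hypoxic library. It fell by 2.52, 1.56 and 1.86 on the log2 scale at 6, 12 and 24 h (edgeR, adjusted p = 0.000313, 0.00442 and 0.00652). Its counts were 30 to 42 per library in normoxia and 3 to 15 after. Outside normoxia only 12 h replicate 2, with 15 counts, reached the level the filter asks for. The gene was therefore tested only through the group where it is high, and its calls are no evidence of a difference.

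H3C6, at 6p22, was at 10.3, 14.1 and 11.9 CPM in normoxia, 5.26, 2.95 and 3.36 CPM at 6 h, 4.09, 9.66 and 12.2 CPM at 12 h and 2.95 and 7.47 CPM at 24 h. It fell by 1.65 at 6 h and by 1.23 at 24 h (edgeR, adjusted p = 0.00370 and 0.0324), and the 24 h value was -0.75 without 24 h replicate 1 and -2.05 without replicate 2. The 24 h call was lost without 24 h replicate 1, normoxia replicate 2 or normoxia replicate 3 (edgeR, adjusted p = 0.184, 0.0817 and 0.0564). H3C10 was at 1.37 to 1.69 CPM in normoxia, 0.913, 3.97 and 4.93 CPM at 12 h and 3.04 and 10.7 CPM at 24 h, where its rise of 2.17 ± 0.58 (edgeR, adjusted p = 0.00611) was not called without 24 h replicate 2 (0.98, adjusted p = 0.192).

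H4 genes. H4 proteins are the same whichever of these genes encodes them. Of 8 tested genes, 1 rose and 2 fell at 6 h, and 1 rose at 12 h and at 24 h. The 2 that fell, H4C14 and H4C15, are a single measurement under 2 names. Among all genes 25.1%, 24.2% and 29.9% were called higher at 6, 12 and 24 h, and 27.7% lower at 6 h. The gene that rose each time was H4C9 (chr6:27139282-27139678, plus strand, a single exon), at 8.46, 9.49 and 10.4 CPM in normoxia, 13.6, 13.0 and 15.9 CPM at 6 h, 16.7, 19.4 and 19.1 CPM at 12 h and 22.1 and 30.6 CPM at 24 h. No 2 groups overlapped. Its changes were 0.59 ± 0.16, 0.96 ± 0.16 and 1.48 ± 0.18 (edgeR, adjusted p = 0.00880, 0.000428 and 2.15e-05).

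H4C14 and H4C15 (chr1:149832657-149839767 and chr1:149854045-149861159) were the opposite case. H4C14 was at 42.8, 40.2 and 41.0 CPM in normoxia, 19.5, 12.9 and 10.8 CPM at 6 h, 9.91, 32.1 and 38.2 CPM at 12 h and 19.2 and 150 CPM at 24 h. It fell by 1.52 at 6 h (edgeR, adjusted p = 0.0448), a call lost without any of the 6 libraries compared or without 12 h replicate 2 (adjusted p 0.0524 to 0.138). The 6 h libraries were all below normoxia, as were those of 7200 of the 19981 genes tested. At 24 h the libraries fell on either side of normoxia, and the value of 1.03 ± 0.63 was not called. H4C8, at 2.68 to 4.67 CPM in normoxia and 2.77 to 7.58 CPM at 12 h, and H4C16 at 12p12, at 0.577 to 0.855 CPM in normoxia and 0.0677 to 0.571 CPM at 12 h, were not called at any time.

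By cluster, the 8 genes at 1q21 gave 0 higher and 7 lower at 6 h, 0 and 3 at 12 h, and 1 and 2 at 24 h. The 27 tested genes at 6p22 gave 4 and 3, 14 and 0, and 14 and 1. Over all genes 25.1% were called higher and 27.7% lower at 6 h, 24.2% and 27.1% at 12 h, and 29.9% and 31.3% at 24 h. The median log2 fold change at 6 h was -1.52 at 1q21 and -0.05 at 6p22, beside -0.002 over all genes. The summed level at 1q21 was 142, 143 and 137 CPM in normoxia, 63.2, 43.6 and 43.0 CPM at 6 h, 39.9, 113 and 136 CPM at 12 h and 76.4 and 399 CPM at 24 h. The summed level at 6p22 was 122, 145 and 137 CPM in normoxia, 156, 144 and 151 CPM at 6 h, 178, 267 and 289 CPM at 12 h and 324 and 580 CPM at 24 h. At 6 h the 1q21 sum was 0.355 of normoxia, or 0.378 with identical copies counted once, and the 6p22 sum was 1.11 times normoxia. The 1q21 libraries at 6 h lay wholly below normoxia, whereas those at 6p22 lay above or inside its range. These are counts of few genes, and the difference between clusters was not tested. At 1q21, 4 of the genes are 2 couples of identical copies, and the calls of H3C13 were fixed by the filter. At 6p22 the 12 h calls of H1-6 and H2AC14 were likewise fixed by the filter. Cluster and histone type overlap too, since 3 of the 7 H3 genes and 0 of the 5 H1 genes lie at 1q21.

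**Figure D3:**
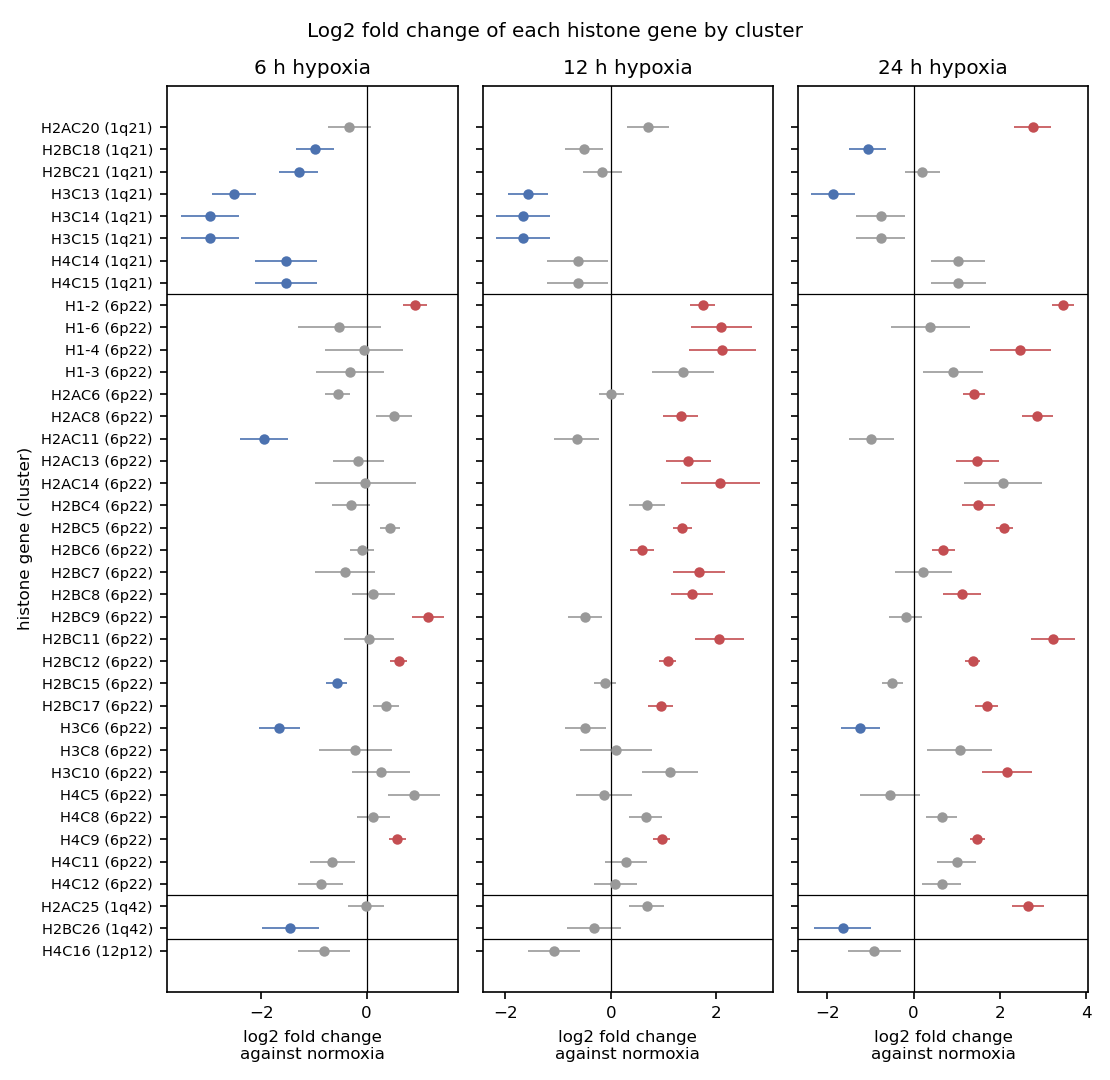
Log2 fold change against normoxia (x axis, points with bars of 1 SE from edgeR) of each tested histone gene at 6, 12 and 24 h, ordered by cluster from 1q21 at the top to 12p12. Red points were called higher, blue points called lower and grey points not called. At 6 h all 8 points at 1q21 are below 0 and 7 are called, while at 12 and 24 h the red points are mostly at 6p22.

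**Figure D4:**
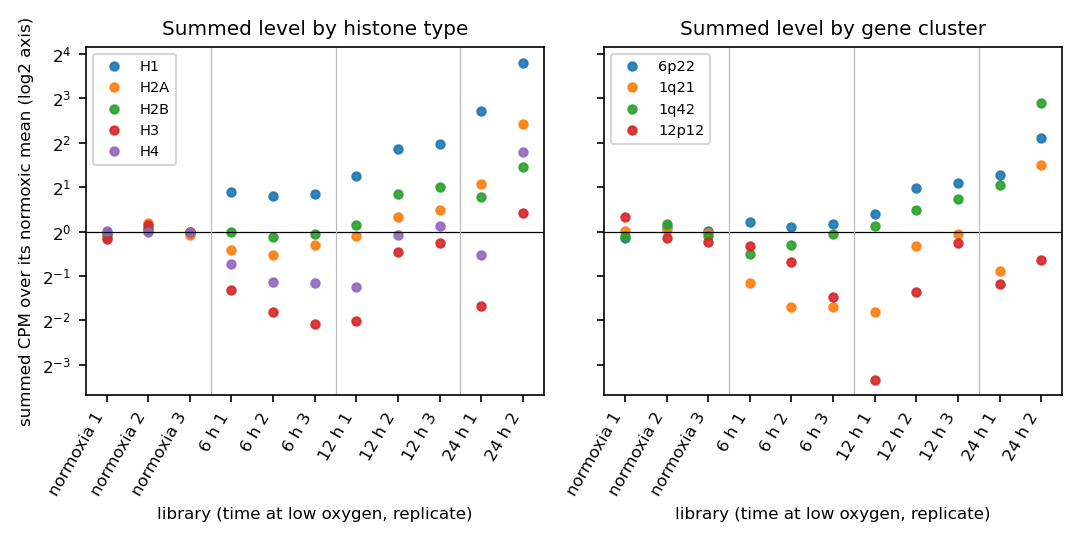
Summed CPM of each histone type (left) and each gene cluster (right) in each library, divided by its mean in normoxia, on a log2 axis. H1 lies above the other types in every hypoxic library and H3 below them, and 12 h replicate 1 and 24 h replicate 1 are lower than the other libraries of their group.

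Genes with a transcript model that runs past the stem-loop, 16 in number, gave 0 higher and 7 lower at 6 h, 3 and 0 at 12 h, and 7 and 3 at 24 h. The 22 tested genes whose model ends there gave 4 and 4, 11 and 3, and 9 and 1. Among these 22, the calls of H3C13 and the 12 h calls of H1-6 and H2AC14 were fixed by the filter. The medians of the 16 and the 22 genes at 6 h were -0.56 and -0.19, beside -0.002 over all genes. Of all genes 25.1% were called higher and 27.7% lower at 6 h, 24.2% and 27.1% at 12 h, and 29.9% and 31.3% at 24 h. The difference between these groups of genes was not tested. H1-2 and H2BC5, with AATAAA close behind the stem-loop, were among the genes that rose at 12 and 24 h, as were H4C9 and H2BC12, which lack it there.

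H2A and H2B genes that start back to back share the stretch between their starts, and the partners were compared. There were 12 such pairs, with both genes counted in 7 and tested in 5, and 303 to 381 bases between start codons. In 3 of the 5 the partners parted, in that their calls at 24 h differed. H2AC25 was 2.66 higher at 24 h where H2BC26 was 1.64 lower, both called, and the ratio of H2AC25 to H2BC26 went from 2.80, 2.63 and 2.96 in normoxia to 5.8, 8.2 and 8.74 at 6 h, 23.4, 5.93 and 3.36 at 12 h and 48.8 and 55.2 at 24 h. The ratios of CPM are not per length, so only their change over libraries can be read, and here every hypoxic library lay above normoxia. The 24 h call of H2BC26 was lost in most fits that left out a library, as given above. The longest models of H2AC25 and H2BC26 run 22592 and 4551 bases past the stem-loop, and reads there count towards the ratio. Their part in it was not tested.

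The pair H2AC11 and H2BC11 moved the opposite way. Its ratio was 1.45, 1.62 and 1.09 in normoxia, 0.311, 0.370 and 0.349 at 6 h, 0.195, 0.178 and 0.233 at 12 h and 0.0904 and 0.0657 at 24 h. The ratio was lower in every hypoxic library than in any normoxic one, and 12 h replicate 1 was close to the other 12 h libraries although both genes were low in it. At 6 h H2AC11 fell and H2BC11 stayed at 0.04, and at 24 h H2BC11 rose and H2AC11 stood at -0.98. H2AC20 and H2BC21 parted as well, at 2.75 and 0.20 at 24 h. H2AC6 and H2BC4 stayed together at 24 h, at 1.41 and 1.499. H2AC8 and H2BC8 shared only the direction at 24 h, at 2.87 and 1.12. Their ratio was 0.174, 0.143 and 0.170 in normoxia and 0.391 and 0.685 at 24 h. The 24 h call of H2BC4 was lost without 24 h replicate 2 (0.55, edgeR adjusted p = 0.187), and that of H2BC8 in 7 of the 11 fits that left out a library. H2BC4 shares 30.9% of its exonic bases with genes on the opposite strand. The difference within a pair was not tested in a model.

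**Figure D5:**
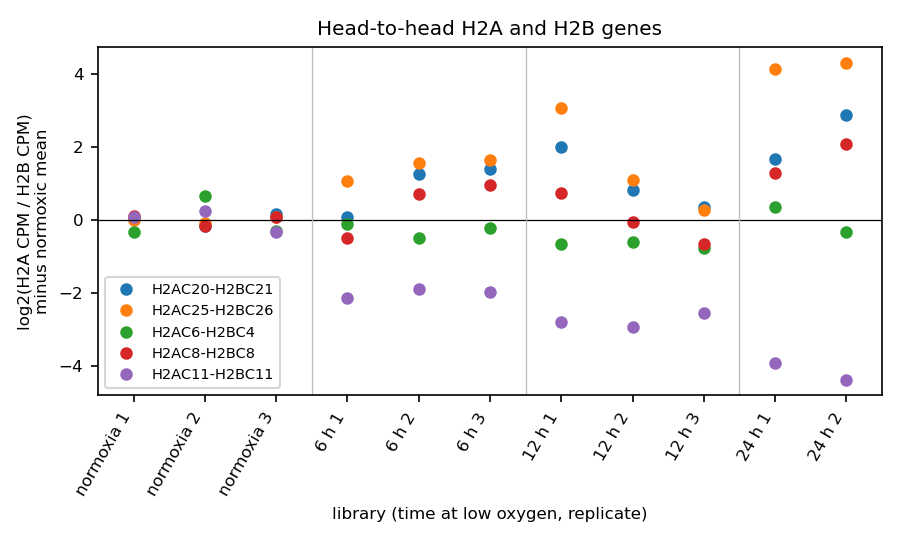
Log2 ratio of the H2A gene's CPM to that of its back-to-back H2B gene (y axis, minus the mean in normoxia) in each library, for the 5 pairs with both genes tested. H2AC25-H2BC26 lies above 0 and H2AC11-H2BC11 below 0 in every hypoxic library, whereas H2AC6-H2BC4 stays within about 1 of normoxia.

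The promoters were read from RefSeq (GRCh38.p14), which held 43 of the 44 genes, as 250 bases before the start and 50 after. Motifs were searched on both strands. CCAAT, the box bound by NF-Y, was in 35 of 43 (81.4%), against 34.6% of all 35116 promoters, in every H1, H2A, H2B and H3 promoter and in 1 of 9 H4 promoters. TATAAA was in 65.1% against 11.5% of all promoters. The octamer ATTTGCAT, the site of OCT1 in H2B promoters, was in 11 of 15 H2B and 5 of 7 H2A promoters and in none of the H1, H3 or H4 promoters, against 1.8% of all. AAACACA, known from H1 promoters, was in 5 of 5 H1 promoters, against 5.6% of all. The cores that HIF binds, ACGTG and GCGTG, were each in 6 of the 43 histone promoters, against 21.4% and 36.5% of all promoters. These matches describe the letters in the window and no binding.

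The 250 bases before the start are shown for H1-2, which rose most at 24 h, and for the 2 pairs whose partners parted furthest. Capitals mark matches to any of these motifs on either strand. In H1-2 the motif known from H1 promoters stands on both strands and CCAAT lies near the start. The stretch before H2BC11 runs towards the start of H2AC11, and that before H2AC25 towards the start of H2BC26.
H1-2, chr6:26056471-26056720, minus strand: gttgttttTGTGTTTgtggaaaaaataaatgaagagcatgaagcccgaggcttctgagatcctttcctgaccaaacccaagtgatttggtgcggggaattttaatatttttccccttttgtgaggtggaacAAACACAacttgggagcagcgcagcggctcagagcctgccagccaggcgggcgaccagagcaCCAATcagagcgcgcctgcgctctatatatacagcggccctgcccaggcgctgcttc
H2BC11, chr6:27132796-27133045, minus strand: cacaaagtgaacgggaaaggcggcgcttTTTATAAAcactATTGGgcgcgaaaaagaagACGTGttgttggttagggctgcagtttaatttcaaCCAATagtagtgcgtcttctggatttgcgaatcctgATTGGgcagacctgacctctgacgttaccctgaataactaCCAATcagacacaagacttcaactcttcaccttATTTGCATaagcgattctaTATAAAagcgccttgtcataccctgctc
H2AC25, chr1:228457874-228458123, minus strand: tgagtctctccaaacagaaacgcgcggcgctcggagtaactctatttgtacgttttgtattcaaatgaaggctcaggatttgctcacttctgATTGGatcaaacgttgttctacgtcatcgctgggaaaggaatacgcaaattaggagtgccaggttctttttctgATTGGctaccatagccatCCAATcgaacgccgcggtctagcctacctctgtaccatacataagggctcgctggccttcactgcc

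Between the hypoxic times, 4 histone genes were higher and 1 lower at 12 h than at 6 h, where 1.88% of all genes were called higher and 3.07% lower. The median was 0.92, beside 0.003 over all genes, and 35 of the 38 values were above 0. The 4 were H1-6 (2.61, fixed by the filter as above), H2BC7 (2.07), H2BC11 (2.02) and H2BC5 (0.91), and H2BC9 was lower (-1.65). None of the 5 calls was made in every fit that left out a library: the count was 0 when either of replicates 1 and 2 at 6 h was absent, likewise for replicates 2 and 3 at 12 h, and 14 without 12 h replicate 1. Over all genes the 989 calls fell to between 61 and 242 in the fits with a count of 0, and to 627 without 12 h replicate 1. The counts of 0 are therefore no result about the histone genes. With library size alone 2 were higher and 1 lower, where 99 of the 19981 genes tested were called higher and 591 lower. At 24 h against 12 h, 8 were higher and 0 lower by edgeR, where 15.1% of all genes were called higher and 13.3% lower. DESeq2 and limma-voom also called 0 lower. Library size alone gave 5 higher and 4 lower, where 848 of the 19981 genes tested were called higher and 4610 lower. By edgeR with TMM, 14 of the 38 had an unadjusted p under 0.05 in either direction, as had 8309 of all genes tested. Those 14 are therefore no result about the histone genes. The median was 0.36, beside -0.006 over all genes, but -0.18 without 24 h replicate 2, -0.19 with library size alone and 0.16 without 12 h replicate 1, where 5 were higher and 4 lower. The 8 were H2AC20 (2.04), H2AC25 (1.98), H1-2 (1.72), H2AC8 (1.54), H2AC6 (1.40), H2BC5 (0.75), H2BC17 (0.74) and H4C9 (0.52). Without 24 h replicate 2 the count was 3, namely H2AC6, H1-2 and H2AC25, with values of 0.90, 1.07 and 0.76, and the other 5 lay between 0.25 and 0.92. The calls of H4C9 and H2BC17 were lost in 9 and 10 of the 11 fits that left out a library, all but 1 of which kept 24 h replicate 2. Without 24 h replicate 1 the median of the 38 was 0.69, beside -0.119 over all genes.

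The machinery that makes these messages was measured in the same libraries. The counts of this and the following lists stand beside 25.1% of all genes called higher and 27.7% lower at 6 h, 24.2% and 27.1% at 12 h, and 29.9% and 31.3% at 24 h, and beside all-gene medians of -0.002, -0.033 and -0.065. Of 25 genes of histone transcription and 3′ processing, 15 were higher and 2 lower at 6 h, 11 and 3 at 12 h, and 12 and 4 at 24 h, with medians of 0.44, 0.43 and 0.16. SLBP, which binds the stem-loop, was at 34.4, 25.3 and 36.1 CPM in normoxia, 48.7, 47.8 and 39.0 CPM at 6 h, 29.0, 32.2 and 31.0 CPM at 12 h and 36.1 and 56.8 CPM at 24 h, and rose at 6 h (0.50 ± 0.19) and 24 h (0.54 ± 0.21; edgeR, adjusted p = 0.0381 and 0.0372). NPAT rose at 6 h, from 24.4, 21 and 23.3 CPM to 38.2, 29.9 and 29.95 CPM (0.51 ± 0.16, edgeR adjusted p = 0.0151). LSM11 rose at 6 h (0.41 ± 0.14) and LSM10 at 24 h (1.22 ± 0.29; edgeR, adjusted p = 0.0293 and 0.00280). CASP8AP2 and ZNF473, cofactors of histone transcription and of processing, were not called at any time, at -0.61 and -0.48 at 6 h. Cyclin E genes split, as CCNE1 rose by 1.40, 0.66 and 0.99 while CCNE2 fell by 0.78 and 0.95 at 12 and 24 h, and E2F1 fell by 1.04 at 6 h and 0.65 at 12 h. The spliceosomal SNRPB had the highest called values at 12 and 24 h, 1.72 and 3.11.

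Of 19 genes of histone message decay, 6 were higher and 2 lower at 6 h, 7 and 4 at 12 h, and 8 and 4 at 24 h. ERI1, the nuclease that trims the stem-loop, rose at each time, by 1.04, 0.56 and 0.81, from 7.73 to 8.27 CPM in normoxia to 15.3 to 18.7 CPM at 6 h, 11.6 to 12.1 CPM at 12 h and 12.7 and 15.6 CPM at 24 h (edgeR, adjusted p = 8.63e-05, 0.00646 and 0.000846). ATR, the kinase that answers stalled replication, had the lowest called values at 6 and 24 h, -1.31 and -1.70, and the nuclease XRN1 at 12 h, -1.08.

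Replication-independent variants, most of which are polyadenylated and made outside S phase as well, gave 3 higher and 2 lower of 12 at 6 h, 2 and 1 at 12 h, and 6 and 2 at 24 h. H2AZ1 rose each time, from 145, 133 and 149 CPM in normoxia to 369, 331 and 291 CPM at 6 h, 327, 280 and 292 CPM at 12 h and 404 and 746 CPM at 24 h (1.22, 1.08 and 2.02). H1-10 rose at 24 h (1.14), H3-3A at 6 h (0.65) and 24 h (0.86), and H3-3B at 24 h (1.16). H2AX, H2AZ2 and CENPA were not called, at 0.56, 0.24 and -0.62 at 6 h.

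Of 22 histone chaperones, 4 were higher and 4 lower at 6 h, 4 and 5 at 12 h, and 6 and 7 at 24 h, and ASF1B, which hands new H3 and H4 to the replication fork, had the lowest called value each time (-2.91, -2.26 and -2.55). Of 40 genes of DNA replication and S phase, 7 were higher and 14 lower at 6 h, 10 and 12 at 12 h, and 11 and 9 at 24 h, with medians of -0.28, -0.08 and 0.05. At 12 and 24 h the shares called were near those of all genes and are no result about the list. PCNA, the sliding clamp, rose at 6 h (0.59) and 24 h (1.15), RRM2 fell at 12 h (-0.65), and PRIM1, a primase subunit, was lowest at 6 and 12 h (-2.05 and -1.47). Of 20 mitotic genes, 0 were higher and 4, 6 and 5 were lower at 6, 12 and 24 h. MKI67 was at 239, 146 and 206 CPM in normoxia, 208, 221 and 58.4 CPM at 6 h, 92.7, 232 and 193 CPM at 12 h and 82.9 and 49.5 CPM at 24 h, called at 24 h (-1.57). It was low in 6 h replicate 3 and 12 h replicate 1 as well. As a check of the treatment, 12 of 12 HIF target genes were higher at each time.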

How the data were processed

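The authors aligned reads with STAR to GRCh38 and deposited featureCounts counts per Ensembl gene, whole numbers that were neither filtered nor normalized. The strand setting and the handling of reads with several matches are not given in the sources used here. Libraries were grouped by the sample records, and 0 columns were left out. Symbols came from GENCODE 44 (60357 of 60676 identifiers found).

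The members, gene lists and tests were chosen with earlier results of these data known. filterByExpr (minimum count 10, minimum total 15) kept 19981 genes. edgeR's quasi-likelihood test, scaled by TMM, was fitted to the 11 libraries by time point alone. P-values were adjusted by Benjamini-Hochberg across the genes kept. The common biological coefficient of variation came to 19.6%. The SE is the log2 fold change over the square root of F. Named are the 4 histone genes of highest mean CPM per type, the 5 highest and 5 lowest called per time, their back-to-back partners, genes with 3 counts or fewer in a library, 21 set genes and each list's extremes, of which 1 gene is not reported here. H2BC7, H2BC17, H4C16 and the other genes of the time course groups were named after their values were seen. Totals of 27496009 to 49488345 counts per library limit the sparse genes.

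Alternatives were limma-voom, DESeq2, median-of-ratios factors, library size alone, no filter, at least 10 counts in every library, only the groups compared, the replicate block, identical copies summed, other member minimums and each library left out. A later addition, made with the values known, counted identical copies once in the sums. The edgeR fit was also run on counts simulated from the levels and spread of these data, with known changes. Of 100 genes changed by 1 on the log2 scale, 64, 63 and 46 were recovered at 6, 12 and 24 h. Of 100 changed by 2, it was 97, 98 and 91. Sequences came from GRCh38 and RefSeq. Software was DESeq2 1.42.0, edgeR 4.0.16 and limma 3.58.1 under R 4.3.3, and matplotlib 3.10.9, pandas 2.3.3 and numpy 2.4.6 under Python 3.11.15.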

Additional observations from a re-analysis of the deposited data

Results flagged for a closer look

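The values below differed between 2 times of hypoxia by edgeR's quasi-likelihood test of the difference itself, with adjustment over all genes. From 6 to 12 h, H1-6 was 2.61 higher on the log2 scale, H2BC7 2.07, H2BC11 2.02 and H2BC5 0.91, and H2BC9 was at -1.65. For H1-6, H2BC7 and H2BC11 the level in 12 h replicate 1 was within or just above the range at 6 h, and replicates 2 and 3 carried the difference. From 12 to 24 h, H2AC20 was 2.04 higher, H2AC25 1.98, H1-2 1.72, H2AC8 1.54, H2AC6 1.40, H2BC5 0.75, H2BC17 0.74 and H4C9 0.52. For these 8 genes the value without 24 h replicate 2 ran from 0.25 for H4C9 to 1.07 for H1-2. The calls of H4C9 and H2BC17 were lost in 9 and 10 of the 11 fits that left out a library, all but 1 of which kept 24 h replicate 2. H1-6, with 1 to 4 counts in each library at 6 h, passed the filter on low counts only through 12 h replicates 2 and 3, so its higher value at 12 h was fixed by the filter and is no evidence. No group had 4 or more libraries, so none could be examined for a single outlying library by a formal rule.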

How the results depend on the processing

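The counts of histone genes called at 6 h and 24 h against normoxia stayed within 1.5 times of 15 and 20 under every alternative run, from 10 to 18 and from 15 to 22 when a library was left out. At 12 h against normoxia the count was 17, 11 with at least 10 counts required in every library, and 13 to 21 when a library was left out. For 12 h against 6 h the 5 calls became 10 with DESeq2, 3 with library size alone, 2 with limma-voom, 25 without a filter and 12 with only the groups compared, and 0 to 23 when a library was left out. Over all genes the 989 calls for 12 h against 6 h became 1922, 690, 974, 1674 and 1876 under these alternatives, in the same order. They became 61 to 1003 when a library of normoxia, 6 h or 12 h was left out. The top of the histone range came from the fits without a 24 h library, which lie outside that all-gene range. In those fits the calls over all genes rose above 989 as well. The rise at the top of the histone range therefore cannot be assigned to the histone genes. Where edgeR's histone count was 0, 61 to 242 of all genes were called, so the 0 is no result about the histone genes. Without 12 h replicate 1 the histone count rose to 14 while that of all genes fell to 627. With edgeR's count at 0, between 11 and 18 of the members had an unadjusted p under 0.05. For 24 h against 12 h the 8 calls became 16 without a filter and 6 to 9 when a library of normoxia, 6 h or 12 h was left out. Over all genes the 5668 calls became 6144 and 3068 to 5772. With only the groups compared the histone count was 0 (6 at an unadjusted p under 0.05 by edgeR, and 8 by DESeq2 on all libraries). In that fit 0 of all 17807 genes tested were called, so the 0 is no result about the histone genes. Replicate numbers did not pair the samples: over 15 couples with the same number the correlation of their deviations ran from -0.156 to 0.207. With the replicate block the counts were 12, 15, 21, 2 and 8, against 15, 17, 20, 5 and 8.

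With library size alone H2BC6 at 24 h turned to -0.19. Summed levels relative to normoxia were then 1.44, 2.41 and 5.02 for H1 at 6, 12 and 24 h, 0.601 and 0.870 for H2A at 6 and 12 h, 0.769 and 1.12 for H2B at 6 and 24 h, 0.401 for H4 at 6 h (0.487 with identical copies once), 0.893, 1.32 and 1.67 for 6p22 at 6, 12 and 24 h, 0.662 and 1.00 for 1q42 at 6 and 12 h, and 0.274 for 12p12 at 24 h. The cause was not tested. Other sums moved by less than the spread between replicates, which does not show that they are free of the scaling. At 24 h that spread was wide. With TMM the mean and SD there were 207 and 195 CPM for H4, 238 and 228 CPM for 1q21 and 184 and 113 CPM for H2A. Sparse genes and the small number of libraries limit the precision.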

Other observations

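A pattern over libraries was seen in the histone genes beyond the comparisons of groups. In normoxia, replicate 1 had the lowest level of its group in 20 of the 38 tested histone genes, against 33.3% of all genes tested. At 6 h the 3 libraries were lowest in 11, 13 and 14 of the 38. At 12 h replicate 3 was lowest in 0 of 38 and highest in 28 of 38, against 25.3% and 24.2% of all genes. Among genes listed to check the cell type, the simple epithelial keratins KRT8 and KRT18 rose at each time, KRT18 by 1.63, 1.92 and 2.48 on the log2 scale and KRT8 by 1.43, 1.72 and 2.59. MSMB, a secreted prostate protein, was at most 0.0481 CPM in normoxia and 0.856 CPM in any library. Of the 6 basal markers, whose summed level was 8318 to 11210 CPM in normoxia and 12050 to 21810 CPM in the hypoxic libraries, 3, 4 and 4 were called higher and 2 lower at 6, 12 and 24 h. The 2 were KRT15, at -1.73, -1.27 and -1.07 and TP63, at -1.72, -0.95 and -1.50. These markers describe the same 11 libraries as the histone genes, and their part in the histone values was not tested.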
